A study of Mus musculus with 29 samples.

Results

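The 37 genes described here encode the synaptic vesicle and release machinery, the active zone, synaptic adhesion molecules, postsynaptic scaffolds and kinases, and neurotransmitter receptors of the hippocampus. They were picked by gene symbol from a list of synaptic genes, and all 37 were found in a table of 24346 genes. No measured value entered the rule, though the members were chosen with earlier results of these data known. The list held 11 vesicle and release genes, 3 active zone genes, 5 adhesion genes, 9 scaffold and kinase genes and 9 receptor genes.

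RNA from liver and hippocampus was sequenced in male C57BL/6J mice made obese on a high-fat diet for 10 weeks. The mice then spent 4 weeks on 1 of 4 regimens, and every group, the comparison groups included, carried the same earlier high-fat feeding. HFD mice went on eating the high-fat diet freely, and HFD-IF mice received it with fasting every other day. CC mice were switched to control chow eaten freely, and CC-IF mice received control chow with intermittent fasting. No group had been kept on chow throughout, so every difference is between obese or formerly obese animals. The hippocampal libraries numbered 4 for HFD, 4 for HFD-IF, 4 for CC and 3 for CC-IF, and the liver libraries numbered 4, 2, 4 and 4. Libraries are named here by the number that their column carries, counted from 0. Whole tissue was extracted, so fewer cells of a type and less RNA per cell cannot be told apart.

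Neurons release glutamate or GABA when calcium entry drives synaptic vesicles to fuse with the membrane. The SNARE proteins VAMP2, syntaxin-1A and SNAP-25 carry out that fusion, synaptotagmin-1 senses the calcium, complexins clamp and assist the SNAREs, and synapsins hold vesicles in reserve. Bassoon, Piccolo and RIM1 build the active zone where vesicles dock, and neurexins and neuroligins join both sides of the synapse. On the receiving side PSD-95, Shank and Homer proteins anchor AMPA, NMDA and metabotropic glutamate receptors, CaMKII responds to calcium entering through NMDA receptors, and gephyrin anchors glycine and GABA-A receptors at inhibitory synapses. In the hippocampus this machinery is best known for its part in long-term potentiation and memory.

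The promoters of 3 genes with small p-values below are shown as examples. Other genes that recur among the smallest p-values, such as Homer1 and Cplx2, are not shown. The stretches lie just before the gene start in RefSeq (build GRCm38.p6), and they are written 5′ to 3′ on the gene's strand. Capitals mark matches on either strand to 1 of 3 motifs: TTCAGCACC, the left part of the site bound by the neuronal gene repressor REST; GGGCGG, the GC box; and TGACG, the core of a cAMP response element. The Syn1 stretch is cut to the 164 bases that lie outside the annotated gene. The Grin1 stretch is chr2:25319188-25319437, the Syn1 stretch is chrX:20921005-20921168, both on the minus strand, and the Syn2 stretch is chr6:115134652-115134901 on the plus strand.
Grin1: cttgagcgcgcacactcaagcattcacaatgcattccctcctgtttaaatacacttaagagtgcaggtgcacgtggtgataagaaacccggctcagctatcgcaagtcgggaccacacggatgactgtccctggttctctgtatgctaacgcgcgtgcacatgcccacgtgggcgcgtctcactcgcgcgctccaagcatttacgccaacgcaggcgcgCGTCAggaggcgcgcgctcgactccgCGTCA
Syn1: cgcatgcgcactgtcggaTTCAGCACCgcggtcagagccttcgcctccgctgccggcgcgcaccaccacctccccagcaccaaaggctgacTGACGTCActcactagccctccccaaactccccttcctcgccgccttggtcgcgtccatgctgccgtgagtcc
Syn2: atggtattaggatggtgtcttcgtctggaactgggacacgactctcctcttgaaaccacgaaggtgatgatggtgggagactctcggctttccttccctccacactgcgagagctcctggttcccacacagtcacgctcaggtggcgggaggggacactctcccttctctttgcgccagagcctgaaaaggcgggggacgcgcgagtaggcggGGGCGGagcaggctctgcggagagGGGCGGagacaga

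Promoters were at hand for 25 of the 37 genes, and motifs were counted over the 250 bases before the start. Grin1 held 2 TGACG matches, both on the minus strand, beginning 31 and 5 bases before the start. Syn1 held the TTCAGCACC match 232 bases before the start and a full TGACGTCA site, whose 2 overlapping TGACG matches begin 159 and 156 bases before the start. Syn2 held 2 GC boxes, 37 and 13 bases before the start. The TTCAGCACC motif was present in 0.292% of 27026 mouse promoters and in 1 of the 25. The full TGACGTCA site was present in 1.60% of all promoters and in 1 of the 25. The TGACG core was present in 17.8% of all and in 5 of the 25 (Grin1, Homer1, Rab3a, Stx1a and Syn1), and the GC box in 32.96% of all and in 14 of the 25. These matches are letters in a window and say nothing of binding.

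Depth was estimated from the steps between low values, since the deposited values are FPKM (fragments per kilobase of transcript, scaled to the mapped fragments of the library) and not counts. It came to about 11.6 M to 38.7 M fragments per hippocampal library and 9.88 M to 16.7 M per liver library (M, mega), as a rough guide. General neuron markers (9 of 9 measured) summed to 824 to 989 FPKM in every hippocampal library, and 6 liver markers to 0.20 to 2.08 FPKM, with 1 of them at 0 throughout. The dissections differed in choroid plexus, the epithelium that makes cerebrospinal fluid. Its 8 markers summed to 335 to 1798 FPKM in 6 libraries and to 12.7 to 84.9 FPKM in the other 9. Of the 6, 3 were HFD libraries (of 4), and HFD-IF, CC and CC-IF gave 1 each. Meningeal markers (7 of 7 measured) summed to 32.6 to 49.3 FPKM in HFD, 16.9 to 28.6 in HFD-IF, 16.5 to 42.4 in CC and 17.4 to 29.6 in CC-IF.

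The hippocampal libraries also fell into 2 sets by the upper quartile of FPKM over all genes, a split found after the data were seen. In 6 libraries it was 8.18 to 8.66 FPKM and in 9 it was 9.10 to 9.25 FPKM. The 6 comprised 2 of 4 HFD, 1 of 4 HFD-IF, 1 of 4 CC and 2 of 3 CC-IF libraries, and 4 of them were also among those rich in choroid plexus markers. The labels give no batch. Counts of calls are therefore also given with the split as a term in the model. The same holds for counts of positive differences in CC minus HFD, HFD-IF minus HFD and CC-IF minus CC.

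Most vesicle and release genes averaged over 100 FPKM in hippocampus. Snap25, a plasma membrane SNARE, averaged 642 FPKM ± 62.4 (SD, n = 15 hippocampal libraries). In order of library number it measured 523, 652, 535 and 674 FPKM in HFD, 675, 665, 601 and 719 in HFD-IF, 684, 724, 564 and 662 in CC, and 657, 692 and 610.1 in CC-IF. The 2 lowest values were HFD libraries, the highest was a CC library, and all 4 groups overlapped. Vamp2, the vesicle SNARE, averaged 382 FPKM, the glutamate transporter gene Slc17a7 (VGLUT1) 351, the vesicle membrane protein gene Syp 302, the vesicle GTPase gene Rab3a 276 and Syt1 219. The complexins Cplx2 and Cplx1 averaged 205 and 171 FPKM, and the synapsins Syn1 and Syn2 133 and 131. Stx1a was the lowest of the class at 24.9 FPKM ± 2.86 (SD, n = 15). It measured 23.5, 20.2, 23.4 and 27.3 FPKM in HFD, 28.3, 23.4, 29.9 and 24.1 in HFD-IF, 21.98, 25.9, 22.7 and 25.6 in CC, and 29.98, 23.6 and 24.3 in CC-IF, and the groups overlapped.

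Active zone and adhesion genes were lower. Bsn averaged 74.1 FPKM, Pclo 47.2 and Rims1 37.4. Rims1 measured 31.8, 40.1, 35.1 and 39.5 FPKM in HFD, 35.2, 38.5, 38.9 and 36.98 in HFD-IF, 38.4, 39.3, 34.2 and 39.8 in CC, and 39.3, 37.2 and 36.6 in CC-IF. Its groups overlapped, and the lowest value was an HFD library. Of the adhesion genes, the presynaptic neurexins Nrxn2 and Nrxn3 averaged 64.4 and 46.7 FPKM. Among their postsynaptic partners, Nlgn2, the neuroligin of inhibitory synapses, averaged 44.4, Nlgn3 38.9 and Nlgn1, the neuroligin of excitatory synapses, 19.2. Nrxn2 measured 66.4, 54.2, 60.8 and 58.03 FPKM in HFD, 55.5, 58.4, 77.3 and 73.4 in HFD-IF, 59.7, 61.8, 68.98 and 60.1 in CC, and 75.1, 63.3 and 72.9 in CC-IF. Nlgn1 measured 14.3, 19.1, 15.5 and 21.2 FPKM in HFD, 20.1, 21.1, 16.9 and 22.2 in HFD-IF, 21.2, 22.3, 17.4 and 19.6 in CC, and 18.7, 19.5 and 18.3 in CC-IF. Every regimen therefore overlapped every other for both genes.

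Camk2a, the alpha subunit of CaMKII, was the most abundant of the 37 genes at 842 FPKM ± 58.5 (SD, n = 15). It measured 811, 909, 791 and 721 FPKM in HFD, 769.7, 904, 885 and 866 in HFD-IF, 899, 893, 828.7 and 783 in CC, and 821, 851 and 902 in CC-IF. Both the highest and the lowest value belonged to HFD. Among the other scaffold and kinase genes Camk2b averaged 269 FPKM, Shank1 218, Dlg4 (PSD-95) 203, Dlg2 (PSD-93) 56.9, Shank3 43.5, Shank2 42.5 and Homer1 33.1. Gphn (gephyrin) was the lowest at 16.9 FPKM. It measured 13.98, 18.2, 16.05 and 17.7 FPKM in HFD, 17.6, 18.2, 15.6 and 17.3 in HFD-IF, 19.1, 16.5, 13.9 and 17.6 in CC, and 16.8, 18.8 and 16.00 in CC-IF, with the highest and the lowest value both in CC.

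Among the receptor genes, the AMPA receptor subunits Gria1 and Gria2 averaged 201 and 173 FPKM, Gria3 41.8 and Gria4 13.7, the lowest of the 37. The NMDA receptor subunits Grin2b and Grin1 both averaged 119 FPKM and Grin2a 83.8. Gabbr1, a GABA-B receptor subunit, averaged 118 and Grm5, the metabotropic receptor mGluR5, 43.2. Gria1 measured 197, 224, 180.2 and 181 FPKM in HFD, 188, 218, 188 and 214 in HFD-IF, 227, 229, 194 and 195 in CC, and 179.8, 206 and 202 in CC-IF, and its groups overlapped. Gria4 measured 11.9, 13.6, 9.73 and 17.2 FPKM in HFD, 17.4, 12.6, 14.6 and 15.4 in HFD-IF, 13.4, 12.9, 11.2 and 16.4 in CC, and 14.7, 13.7 and 11.3 in CC-IF. It had the widest spread within groups of the 37, a residual SD of 0.23 log2 units. Grin1 had the narrowest, 0.07. The median residual SD of the 37 was 0.11 log2 units, against 0.15 for all 12857 genes tested in hippocampus.

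**Figure D1:**
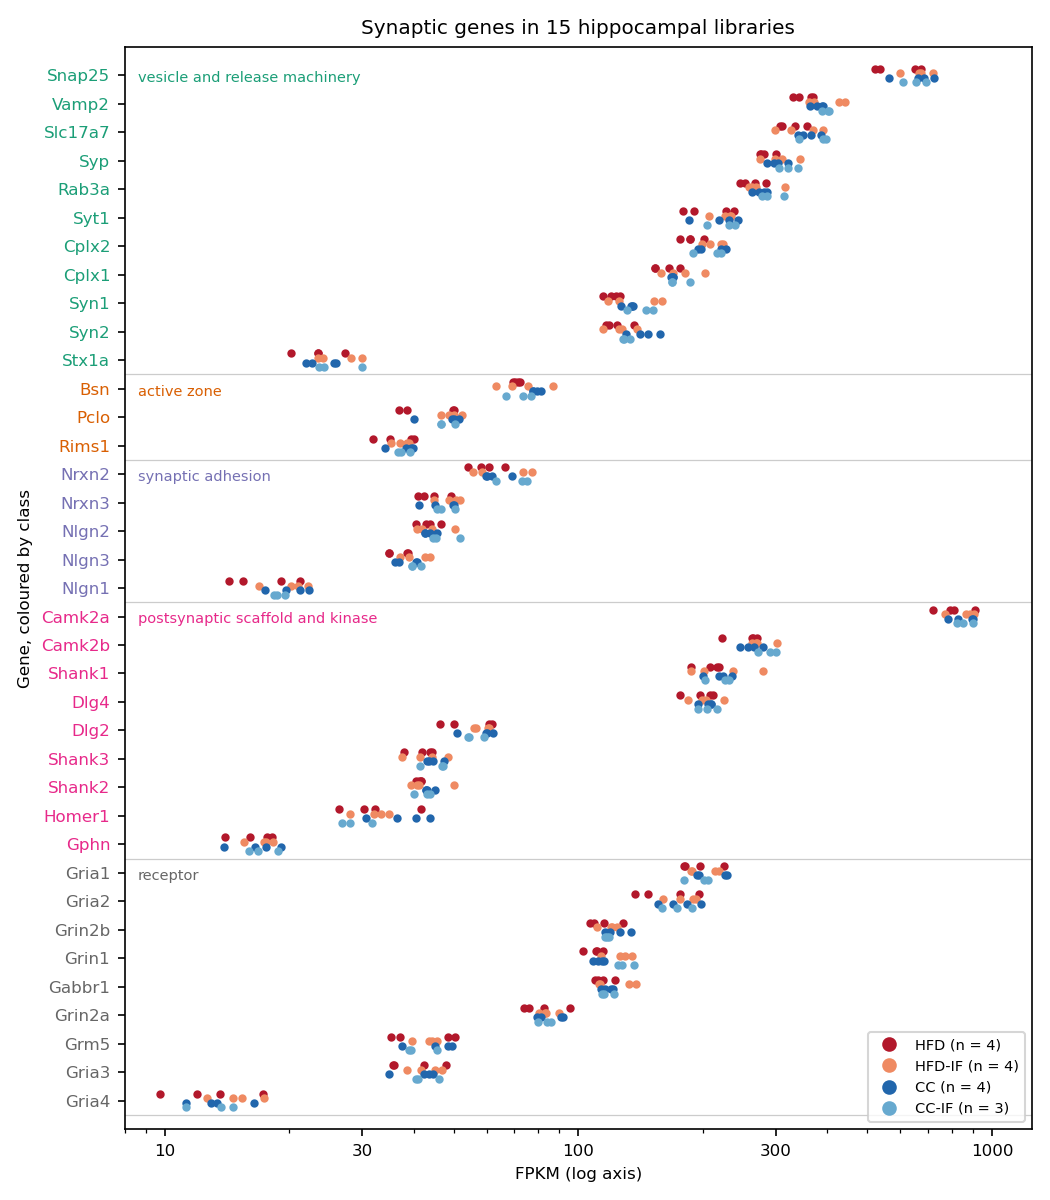
FPKM (log axis) of the 37 synaptic genes in each of 15 hippocampal libraries, 1 point per library, coloured by regimen and ordered by mean level within 5 classes. Camk2a averages 842 FPKM and Gria4 13.7, and for most genes the 4 regimens overlap along the row.

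Ratios between paired members were computed within each library, on the FPKM scale. Grin2a stood to Grin2b, the subunit that is typical of younger synapses, as 0.706 ± 0.031 (SD, n = 15), with group means between 0.693 in CC and 0.713 in HFD. Camk2a stood to Camk2b as 3.14 ± 0.15, with group means from 2.98 in CC-IF to 3.25 in CC. The CC-IF libraries lay at 2.93 to 3.02 and the CC libraries at 3.19 to 3.38, so these groups did not overlap. HFD (3.00 to 3.36) and HFD-IF (2.93 to 3.30) overlapped both. Of all single genes, 8.98% did not overlap between CC-IF and CC. A ratio of 2 genes is another measure, and the share for such ratios was not computed. No test was made of these ratios. Gria2 stood to Gria1 as 0.861 ± 0.065, Cplx2 to Cplx1 as 1.20 ± 0.12, Nlgn1 to Nlgn2 as 0.435 ± 0.069 and Homer1 to Dlg4 as 0.164 ± 0.029 (SD, n = 15 each).

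The difference between the 2 library sets followed base composition across the 37 genes. Each gene's difference (log2 level in the 6 libraries minus the 9, with the regimens in the model) had a correlation of r = 0.865 with the GC content of its longest coding transcript, as a description over 37 genes measured in the same 15 libraries. Over 12373 genes with a transcript r was 0.306. All 13 synaptic genes with at least 55% GC were higher in the 6 libraries, by a median of 0.10, and all 9 with under 45% GC were lower, with a median of −0.25. Grm5 (−0.30), Nlgn1 (−0.28), Gria2 (−0.26), Syt1 (−0.25) and Snap25 (−0.24) lay at one end, and Nrxn2 (0.22), Shank1 (0.21) and Slc17a7 (0.18) at the other. Grin1 differed by 0.05 and Camk2a by 0.00. With transcript length on a log2 scale the 37 genes had r = −0.164.

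**Figure D2:**
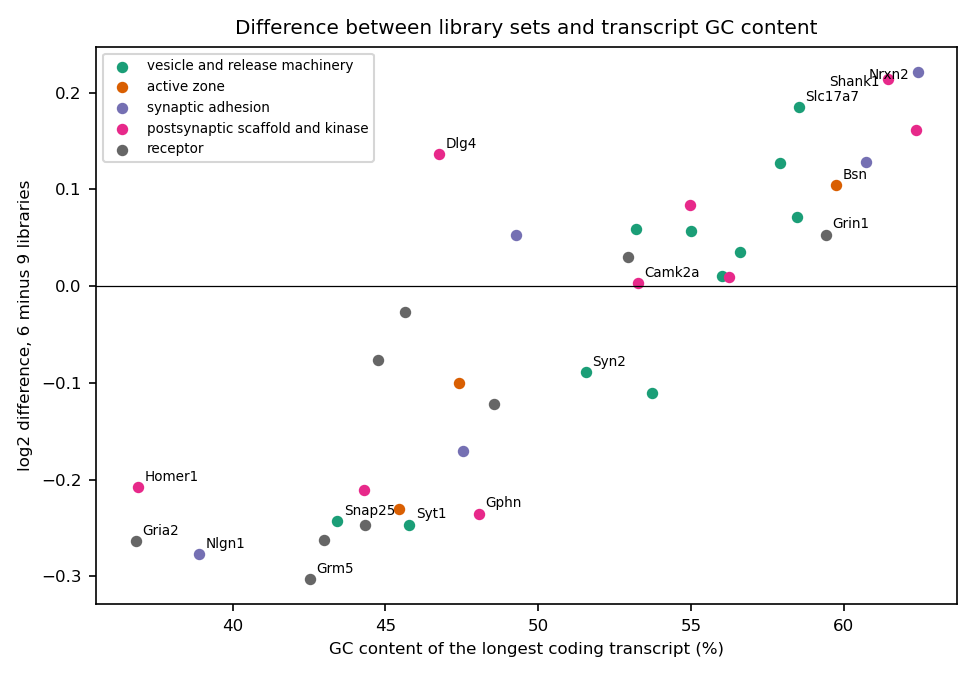
Log2 difference between the 6 libraries with the lower upper quartile and the 9 with the higher one, against GC content of the longest coding transcript (%), 1 point per synaptic gene. Genes under 45% GC lie below 0 and genes at or above 55% GC above it, with Grm5 at −0.30 and Nrxn2 at 0.22.

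The change of food alone, to chow eaten freely, was examined first (CC minus HFD). None of the 37 genes passed an adjusted p of 0.05 (limma on log2(FPKM + 1), two-sided, Benjamini-Hochberg over 12857 genes), and 0% of all genes did. An unadjusted p under 0.05 was reached by 2 of the 37, Syn2 and Cplx2, against 3.56% of all genes. Syn2, a synapsin of the reserve pool, measured 118, 124, 116 and 136 FPKM in HFD, 115, 128, 125 and 139 in HFD-IF, 141, 158, 130.4 and 148 in CC, and 128, 129 and 134 in CC-IF. Apart from the lowest CC library, the CC values lay above all HFD values. The log2 difference was 0.22 ± 0.07 (SE), 1.16-fold, with adjusted p = 0.994 (limma). Cplx2, a complexin enriched in excitatory neurons, measured 176, 202, 186 and 186 FPKM in HFD, 208, 221, 199 and 223 in HFD-IF, 221, 228, 194 and 198 in CC, and 189.8, 216 and 221 in CC-IF. It differed by 0.16 ± 0.07 (SE), and its HFD and CC groups overlapped.

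Bsn, the active zone scaffold, measured 72.2, 70.5, 69.4 and 71.3 FPKM in HFD, 63.1, 68.96, 86.9 and 75.4 in HFD-IF, 77.6, 79.2, 77.7 and 81.3 in CC, and 73.4, 67.02 and 76.99 in CC-IF. All CC libraries lay above all HFD libraries, while HFD-IF spanned both. Its log2 difference was 0.15 ± 0.08 (SE), with adjusted p = 0.994 (limma), in a model whose spread is shared by all 4 groups. Syn1 and Shank2 did not overlap either, which makes 3 of the 37 against 2.47% of all genes. Shank2 lay at 40.4 to 41.7 FPKM in HFD and at 42.7 to 45.1 in CC. All 37 differences were positive, from 0.01 (Nlgn2) to 0.22, with a median of 0.08, and over all genes the median was 0.04 with 67.02% positive. By class the medians were 0.11 for vesicle genes, 0.13 for active zone genes, 0.07 for adhesion genes, 0.08 for scaffolds and 0.07 for receptors. The uniform sign depended on the processing, with 30 of 37 positive after median-ratio scaling, 23 of 37 after quantile normalization and 34 of 37 with the library set as a term. Cell type markers also differed in this comparison, none of those named here past the threshold. General neuron markers (9 tested) were all higher with a median of 0.07, and interneuron markers (7) all higher with a median of 0.12. Markers of CA1 and CA3 pyramidal cells were higher for 4 of 5 each (medians 0.03 and 0.13). Dentate granule cell markers were higher for 2 of 6, with a median of −0.02. Choroid plexus markers (7 tested) were all lower with a median of −1.24, meningeal markers (7) all lower with a median of −0.60, and oligodendrocyte markers (8) all higher with a median of 0.08. Summed oligodendrocyte markers ran from 1154 to 1560 FPKM in HFD and from 1244 to 1832 in CC. Within the 9 libraries poor in choroid plexus markers, which leave 1 HFD library, the median of the 37 was 0.05, and the part of the other markers was not tested. The lowest and highest bounds of the 95% intervals of the 37 genes were −0.27 and 0.49.

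Fasting on the high-fat diet (HFD-IF minus HFD) was compared against the same HFD libraries as the diet switch. Again none of the 37 passed, and 0% of all genes did. An unadjusted p under 0.05 was reached by 4 of the 37, against 7.6% of all genes, and these were Grin1, Vamp2, Cplx2 and Syn1. Grin1, the subunit that every NMDA receptor contains, measured 111, 115, 110.4 and 103 FPKM in HFD, 113, 126, 135 and 129 in HFD-IF, 115, 114, 112 and 109 in CC, and 136, 125 and 128 in CC-IF. Of the HFD-IF libraries, 3 lay above all HFD libraries and the fourth, library 0, lay among them. The log2 difference was 0.19 ± 0.06 (SE), 1.14-fold, with adjusted p = 0.563 (limma). Vamp2 measured 330.4, 343, 366 and 368 FPKM in HFD, 361, 372, 442 and 428 in HFD-IF, 377, 391, 389 and 363 in CC, and 404, 388 and 401 in CC-IF. Its difference was 0.18 ± 0.07 (SE), with HFD-IF library 0 within the HFD range. Cplx2, with the values given above, also differed by 0.18 ± 0.07 (SE). No gene of the 37 had groups that did not overlap, against 3.28% of all genes.

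Of the 37 differences 36 were positive, with a median of 0.11, and over all genes the median was 0.05 with 65.4% positive. Homer1, at −0.01, was the exception. Vesicle genes had a median of 0.13, adhesion genes 0.14, receptors 0.10, scaffolds 0.06 and active zone genes 0.04. After median-ratio scaling 26 of 37 were positive, 31 of 37 after quantile normalization and 35 of 37 with the library set as a term. The median of the 37 was 0.04 within the 9 libraries of higher upper quartile, and 0.18 within the 6 of lower upper quartile, where 1 HFD-IF library stood against 2 HFD libraries. All 8 oligodendrocyte markers were higher with a median of 0.18, from 1508 to 1763 FPKM summed in HFD-IF. Of the 8 microglial markers 1 was higher, with a median of −0.07. The 7 choroid plexus markers tested were all lower (median −1.54), as were the 7 meningeal markers (−0.73). The 9 general neuron markers were all higher with a median of 0.09. They summed to 824 to 945 FPKM in HFD and to 938 to 987 in HFD-IF. Interneuron markers were higher for 5 of 7 (median 0.09) and dentate granule cell markers for 3 of 6 (0.03). Markers of CA1 and CA3 pyramidal cells were higher for 2 of 5 each (−0.005 and −0.02). None of these markers passed, and the part of the neuron, oligodendrocyte, microglial and meningeal markers was not tested. Within the 9 libraries poor in choroid plexus markers, 1 of them HFD, the median of the 37 was 0.07.

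Fasting on chow (CC-IF minus CC) gave differences of both signs. None of the 37 passed, against 0.00778% of all genes (1 gene). An unadjusted p under 0.05 was reached by 2, Grin1 and Homer1, against 6.39% of all genes. For Grin1 all 3 CC-IF libraries lay above all 4 CC libraries. The difference was 0.20 ± 0.07 (SE), 1.15-fold, with adjusted p = 0.532 (limma). Homer1, a scaffold that links mGluR5 to Shank proteins and whose short form is induced by activity, measured 26.4, 41.5, 30.3 and 32.2 FPKM in HFD, 28.1, 33.3, 34.8 and 31.96 in HFD-IF, 40.4, 36.4, 30.7 and 43.8 in CC, and 27.99, 31.7 and 26.8 in CC-IF. The lowest CC library lay within the CC-IF range. This was the largest negative difference of the 37, −0.37 ± 0.14 (SE), 0.77-fold, with adjusted p = 0.609 (limma). The deposited values are per gene and do not separate the short and long forms.

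Syn2 had the third smallest p in that comparison, at 128 to 134 FPKM in CC-IF against 130.4 to 158 in CC, a difference of −0.14 ± 0.08 (SE). Bsn and Grin1 were the 2 of 37 genes whose groups did not overlap, against 8.98% of all genes. Bsn was lower in CC-IF than in CC. Of the 37 differences 21 were positive, with a median of 0.01 against −0.02 for all genes. Positive differences numbered 25 of 37 after median-ratio scaling (median 0.02), after quantile normalization (0.05) and with the library set as a term (0.04). Among the receptors 2 of 9 were positive as deposited, 3 of 9 and 4 of 9 after these scalings, and 5 of 9 with the library set. Among the vesicle genes 8 of 11 were positive as deposited and 9 of 11 with the library set. General neuron markers were higher for 3 of 9 (median −0.05) and interneuron markers for 1 of 7 (−0.07). Dentate granule cell markers were higher for 4 of 6 (0.20), and CA1 and CA3 pyramidal cell markers for 3 of 5 each (0.12 and 0.00). Oligodendrocyte markers were lower for 7 of 8 (median −0.13), microglial markers for 7 of 8 (−0.18) and choroid plexus markers for all 7 tested (−0.14). None of these markers passed the threshold, and their part was not tested. The interaction between fasting and diet passed for none of the 37 and for 0% of all genes, and none of the 37 reached an unadjusted p under 0.05, against 3.39% of all genes. The largest interaction was that of Homer1, −0.36 ± 0.19 (SE), followed in order of p by Cplx2 at −0.19 ± 0.11 and Nlgn1 at −0.28 ± 0.17.

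**Figure D3:**
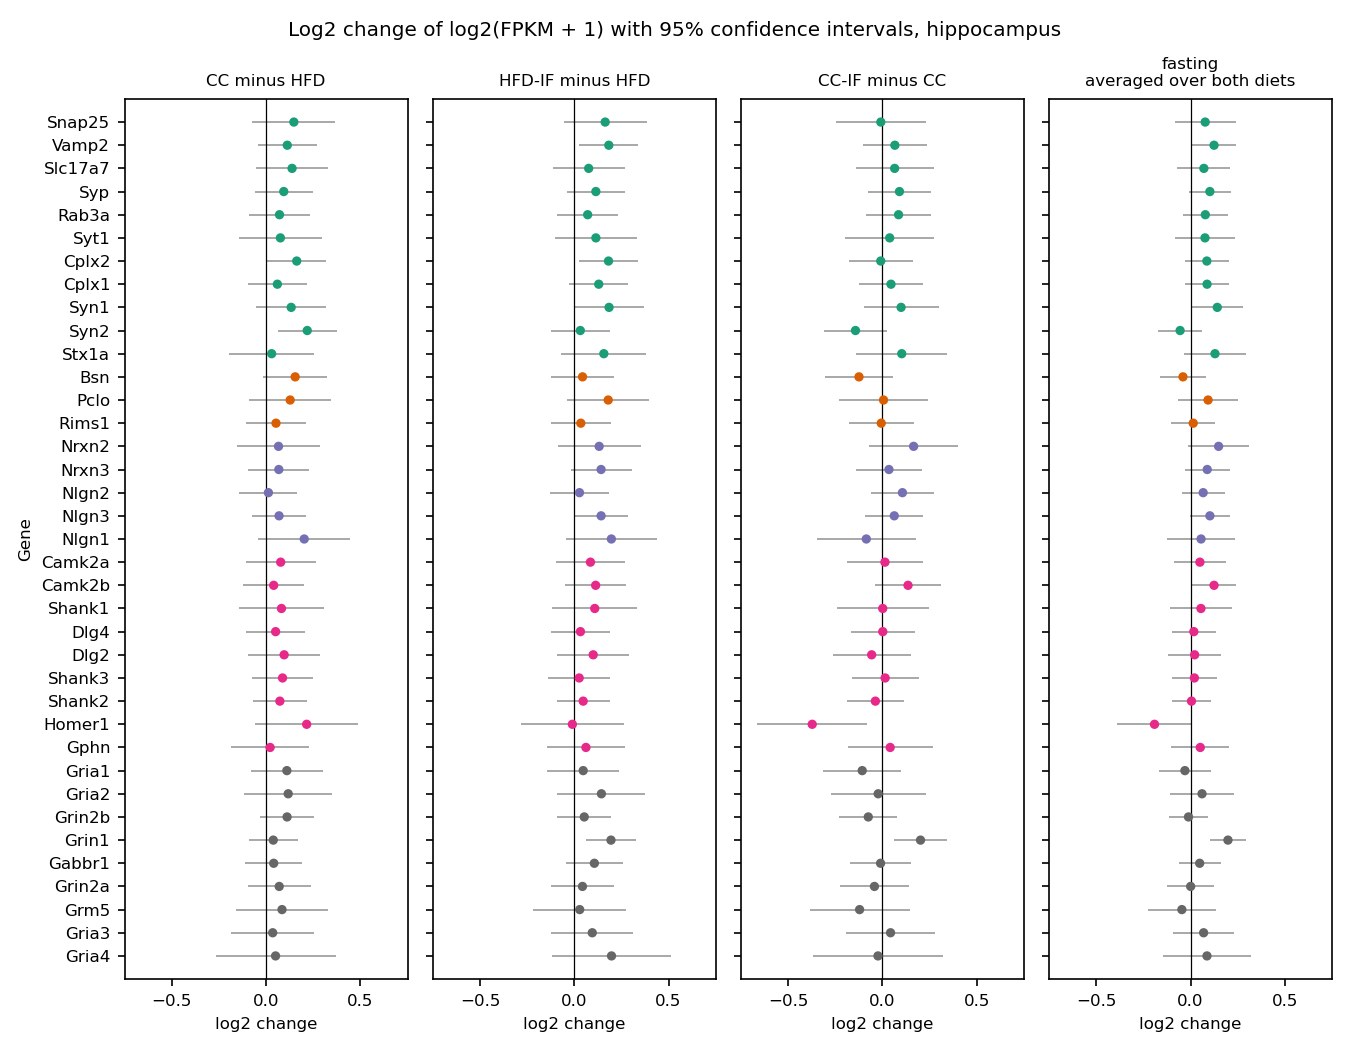
Log2 change of log2(FPKM + 1) with 95% confidence intervals (limma) for the 37 synaptic genes in 4 hippocampal comparisons, coloured by class. The CC minus HFD points all lie above 0 with a median of 0.08, the CC-IF minus CC points scatter around 0, and Grin1 lies at 0.20 for fasting averaged over both diets.

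The fasted groups were then compared with each other (CC-IF minus HFD-IF). None of the 37 passed, as 0% of all genes did, and 0 of the 37 reached an unadjusted p under 0.05, against 2.98% of all genes. The smallest p belonged to Slc17a7 (0.13 ± 0.10, SE), Nlgn2 (0.09 ± 0.08) and Homer1 (−0.15 ± 0.14). Slc17a7 measured 358, 311, 335 and 307 FPKM in HFD, 298, 327, 391 and 369.6 in HFD-IF, 349, 365, 386 and 339 in CC, and 391, 342 and 398 in CC-IF. Nlgn2 measured 46.4, 40.4, 42.7 and 43.8 FPKM in HFD, 40.6, 41.9, 50.4 and 44.2 in HFD-IF, 42.6, 43.9, 45.6 and 42.6 in CC, and 51.6, 44.6 and 45.2 in CC-IF. Both genes overlapped between the fasted groups. No member's groups failed to overlap, against 4.24% of all genes. The median of the 37 was −0.01, and it turned to 0.01 after median-ratio scaling and to 0.02 with the library set as a term.

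The regimen that combined both changes was set against continued high-fat feeding (CC-IF minus HFD). None of the 37 passed, as 0% of all genes did. An unadjusted p under 0.05 was reached by 5 of the 37 (Grin1, Syn1, Syp, Vamp2 and Camk2b), against 8.8% of all genes. Grin1 at 125 to 136 FPKM in CC-IF lay above every HFD library, a difference of 0.24 ± 0.07 (SE), 1.18-fold, with adjusted p = 0.306 (limma). Syn1 measured 119.7, 115, 126 and 123 FPKM in HFD, 118, 125, 159 and 152 in HFD-IF, 127, 134, 135 and 135 in CC, and 151, 131 and 146 in CC-IF. Syp measured 276, 282, 274.6 and 299.9 FPKM in HFD, 275.1, 299, 311 and 344 in HFD-IF, 297, 304, 322 and 286 in CC, and 339, 305 and 321 in CC-IF. Both lay higher in all 3 CC-IF libraries than in all 4 HFD libraries, by 0.23 ± 0.09 for Syn1 and 0.18 ± 0.08 for Syp (SE). Groups did not overlap for 6 of the 37 (Syn1, Syp, Vamp2, Nlgn3, Camk2b and Grin1), against 9.21% of all genes, and all 6 were higher in CC-IF. The HFD libraries, 3 of 4 rich in choroid plexus markers, are the comparison group here as well. Within the 9 libraries poor in those markers, which leave 1 HFD library, the median of the 37 was 0.03, against 0.10 over all libraries.

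Fasting averaged over both diets set 7 fasted against 8 freely fed libraries. None of the 37 passed, against 0.0622% of all genes. An unadjusted p under 0.05 was reached by 4, Grin1, Vamp2, Camk2b and Syn1, against 10.2% of all genes. Grin1 had the smallest p, a difference of 0.20 ± 0.05 (SE), 1.15-fold, with adjusted p = 0.127 (limma). The 8 freely fed libraries ran from 103 to 115 FPKM and 6 of the 7 fasted libraries from 125 to 136, with HFD-IF library 0 at 113. Of the fasted libraries, 2 were rich in choroid plexus markers, HFD-IF library 0 at 335 FPKM and CC-IF library 2 at 991 FPKM, and the latter had Grin1 at 128 FPKM. Of the choroid plexus markers 7 of 8 were tested and all 7 were lower with fasting, by a median of −0.79, none past the threshold. The 7 meningeal markers were all lower, by a median of −0.44, and 1 of them passed. Within the 9 libraries poor in choroid plexus markers, which leave 1 HFD library, the Grin1 difference was 0.19 ± 0.06 (SE).

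With the library set as a term, 123 genes passed in that comparison (0.957% of all), a count that ran from 1 without CC-IF library 0 to 165 without HFD library 3. Grin1 was 1 of the 123, at 0.19 ± 0.04 (SE) with adjusted p = 0.0432 (limma). The other 36 genes did not pass, though 12 of the 37 reached an unadjusted p under 0.05, against 18% of all genes. The call was lost without most single libraries. When each of the 15 was left out in turn under that model, Grin1 passed in 1 case, without HFD-IF library 0 (adjusted p = 0.0259), and in the other 14 its adjusted p lay between 0.05003 and 0.128 (limma). In the other 7 comparisons none of the 37 passed with that term, while 0.0156% of all genes did in CC-IF minus CC, 0.0311% in CC-IF minus HFD and 0% in the rest. Within the 6 libraries of lower upper quartile, with 1 library each of HFD-IF and CC, the Grin1 fasting difference was 0.26 ± 0.05 (SE), and within the 9 of higher upper quartile 0.16 ± 0.06, passing in neither. An antisense gene, Grin1os, overlaps Grin1 and averaged 5.57 FPKM (4.04 to 6.54 over the 15 libraries), with a fasting difference of 0.05 ± 0.08 (SE). The libraries were made with a kit that keeps strand, and whether the counting used it is not given in the sources used here.

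Camk2b and Vamp2 both differed by 0.12 in the averaged comparison, with SEs of 0.06 and 0.05. Camk2b measured 265, 271, 264 and 222 FPKM in HFD, 263, 302, 269 and 269.6 in HFD-IF, 266, 279, 256 and 246 in CC, and 272, 290.2 and 301 in CC-IF. The 3 lowest values were freely fed libraries. CC-IF lay above all HFD libraries and overlapped HFD-IF and CC. Of the 37 averaged differences 31 were positive with a median of 0.07, against a median of 0.01 for all genes. After median-ratio scaling 28 of 37 were positive, and 29 of 37 after quantile normalization. Within the libraries poor in choroid plexus markers, 1 of them HFD, the median of the 37 was −0.00. Microglial markers (8 of 8 measured) had a median difference of −0.12 in the same comparison and were all negative, with none past the threshold. Chow averaged over both feeding schedules passed for none of the 37 and for 0% of all genes. Syn2 alone reached an unadjusted p under 0.05 there, 0.13 ± 0.05 (SE), against 3.09% of all genes. Slc17a7 followed at 0.13 ± 0.07 and Syp at 0.08 ± 0.05.

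**Figure D4:**
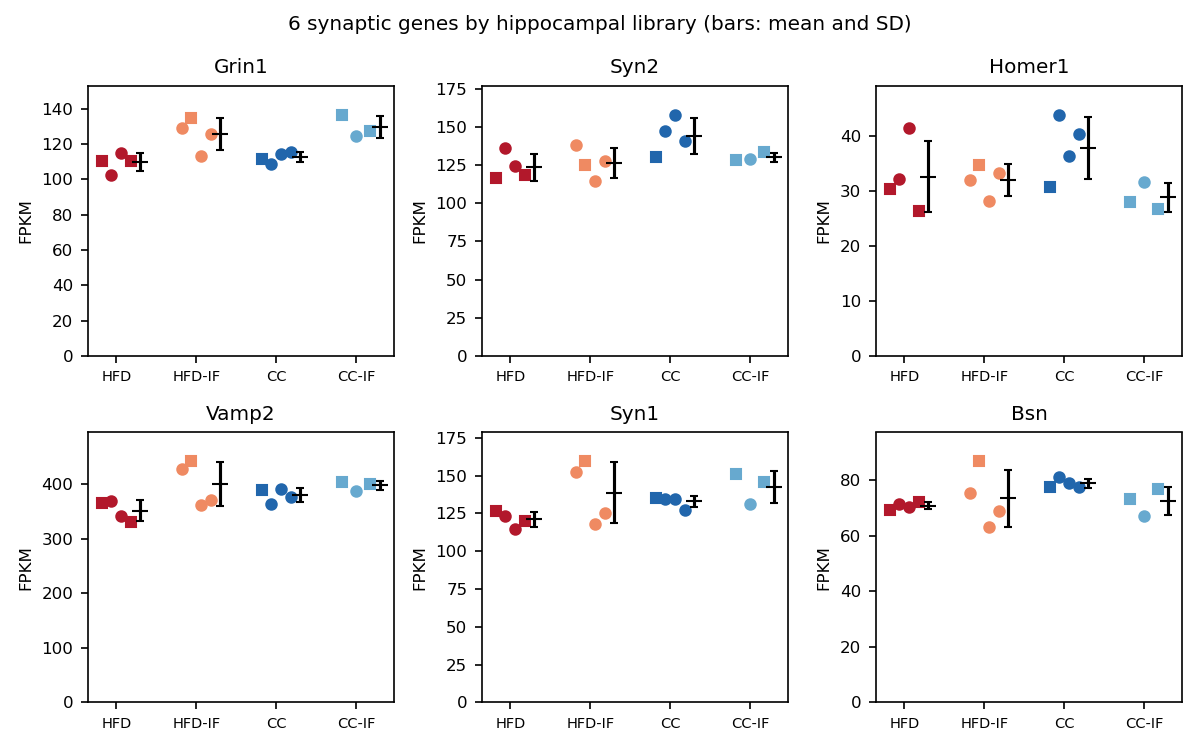
FPKM of 6 synaptic genes in each hippocampal library by regimen, with the mean and SD of each group as a bar at its right; squares are the 6 libraries with the lower upper quartile and circles the other 9. Grin1 lies at 103 to 115 in the freely fed groups and at 113 to 136 in the fasted groups, and Bsn lies at 77.6 to 81.3 in CC, above HFD.

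A further 147 synaptic genes outside the 37 were counted as background to the pathway: 41 vesicle and release genes, 15 active zone genes, 24 adhesion genes, 30 scaffold and kinase genes and 37 receptor genes, all measured. None of the 147 passed in any of the 8 hippocampal comparisons. With the library set as a term 2 of the 147 passed, against 0.957% of all genes, both in fasting averaged over both diets and both higher in fasted mice. These were Syt7, a slow calcium sensor of the synaptotagmin family, at 0.19 ± 0.04 (SE), and Dlgap1, a scaffold that binds PSD-95 and Shank, at 0.15 ± 0.03, each with adjusted p = 0.0432 (limma). With each library left out in turn the adjusted p ran from 0.0439 to 0.127 for Syt7 and from 0.0497 to 0.128 for Dlgap1, so both calls were lost in most cases. The medians of the 147 were 0.06 for CC minus HFD, 0.09 for HFD-IF minus HFD and 0.00 for CC-IF minus CC, beside 0.08, 0.11 and 0.01 for the 37.

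The same genes were then read in liver. Only 10 of the 37 reached a mean of 1 FPKM there. The other 27 were kept for their level in hippocampus, which fixes their direction, and they are given as levels only. In a model over both tissues, among 9939 genes kept in each, 9 of the 10 were higher in hippocampus, where 39.4% of all were, and 1, Gphn, was lower, where 49.7% of all were. Snap25, Cplx1, Slc17a7, Nlgn1 and Grm5 were listed at 0 in all 14 liver libraries. The 10 genes were Gphn, Vamp2, Shank2, Homer1, Rab3a, Shank3, Syt1, Camk2b, Nlgn2 and Gabbr1. Gphn averaged 29.4 FPKM there against 16.9 in hippocampus, a log2 difference of −0.75 ± 0.06 (SE). Gephyrin is also an enzyme of molybdenum cofactor synthesis, a pathway active outside the brain. In liver Gphn measured 32.9, 34.9, 31.1 and 31.2 FPKM in HFD, 33.01 and 22.04 in HFD-IF, 25.02, 25.5, 28.7 and 31.3 in CC, and 25.9, 32.1, 32.5 and 25.99 in CC-IF. Vamp2 averaged 16.6 FPKM in liver, Shank2 8.54, Homer1 5.60, Rab3a 5.05, Shank3 3.63, Syt1 2.26, Camk2b 2.11, Nlgn2 1.37 and Gabbr1 1.07.

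Shank2 fell in liver with fasting on chow. It measured 10.1, 7.71, 8.76 and 11.7 FPKM in HFD, 6.48 and 6.67 in HFD-IF, 11.3, 11.7, 12.8 and 9.37 in CC, and 7.19, 4.704, 5.28 and 5.82 in CC-IF. CC and CC-IF did not overlap. The difference was −0.87 ± 0.14 (SE), 0.55-fold, with adjusted p = 0.000701 (limma over 11497 liver genes). Against HFD, CC-IF differed by −0.65 ± 0.14 (SE), with adjusted p = 0.00508 (limma). The 2 HFD-IF libraries lay below all 4 HFD libraries, a difference of −0.47 ± 0.17 (SE) that did not pass (adjusted p = 0.175, limma). Both Shank2 calls held under each of 24 alternative settings, with adjusted p between 0.000555 and 0.0171 (limma). In hippocampus Shank2 measured 41.7, 41.2, 40.4 and 41.6 FPKM in HFD, 39.4, 40.8, 49.9 and 41.2 in HFD-IF, 43.2, 42.7, 42.8 and 45.1 in CC, and 43.1, 40.05 and 43.9 in CC-IF, and CC and CC-IF overlapped. The fasting difference on chow in liver minus that in hippocampus was −0.83 ± 0.16 (SE), with adjusted p = 0.000816 (limma), and Shank2 was the 1 of the 10 genes measured in both tissues to pass that test, against 12.9% of all such genes.

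In liver, CC-IF minus CC changed a large share of the transcriptome, and 2 of the 10 measured genes passed, against 24% of all. The second was Syt1, which measured 2.43, 2.02, 1.27 and 2.56 FPKM in HFD, 3.03 and 1.500 in HFD-IF, 1.39, 2.05, 1.59 and 2.01 in CC, and 2.38, 3.26, 3.38 and 2.82 in CC-IF. CC and CC-IF did not overlap, with a difference of 0.52 ± 0.18 (SE) with adjusted p = 0.0474 (limma), a call that held under 8 of 23 alternative settings. CC-IF minus HFD passed for 1 of the 10 against 23.7% of all, CC minus HFD for 0 against 2.3%, HFD-IF minus HFD for 0 against 1.32% and CC-IF minus HFD-IF for 0 against 0.591%. The smallest p among the 10 belonged to Nlgn2 in CC minus HFD (0.33 ± 0.17, SE) and in HFD-IF minus HFD (0.64 ± 0.20), and to Homer1 in CC-IF minus HFD-IF (0.56 ± 0.15). Nlgn2 measured 0.992, 0.642, 0.791 and 1.09 FPKM in HFD, 1.36 and 2.58 in HFD-IF, 1.53, 1.26, 1.44 and 1.17 in CC, and 2.23, 1.18, 1.84 and 1.13 in CC-IF. HFD and HFD-IF did not overlap. Homer1 measured 5.38, 5.82, 4.395 and 4.83 FPKM in HFD, 4.896 and 3.41 in HFD-IF, 6.04, 5.44, 5.74 and 6.18 in CC, and 5.66, 6.03, 8.23 and 6.37 in CC-IF, and every CC-IF library lay above both HFD-IF libraries. Vamp2 measured 14.5, 16.2, 14.1 and 16.00 FPKM in HFD, 15.8 and 17.5 in HFD-IF, 15.8, 16.6, 14.6 and 18.2 in CC, and 19.8, 17.6, 19.3 and 15.8 in CC-IF. Rab3a measured 6.95, 2.71, 2.99 and 5.48 FPKM in HFD, 4.79 and 3.56 in HFD-IF, 5.804, 6.696, 4.47 and 5.31 in CC, and 5.64, 5.84, 4.92 and 5.54 in CC-IF. Neither gene passed, although the CC-IF values of Rab3a lay above both HFD-IF values. Shank3 measured 2.82, 2.997, 2.93 and 4.92 FPKM in HFD, 3.12 and 3.32 in HFD-IF, 3.304, 3.47, 3.64 and 3.698 in CC, and 4.59, 4.43, 3.86 and 3.78 in CC-IF. It did not pass either, although its CC-IF values lay above all CC and HFD-IF values. The share of all liver genes whose groups do not overlap was not computed. The liver separations named for Shank2, Syt1, Nlgn2, Homer1, Rab3a and Shank3 are therefore given as values only. Camk2b measured 1.67, 1.898, 1.79 and 2.58 FPKM in HFD, 2.43 and 1.76 in HFD-IF, 2.85, 2.44, 1.69 and 3.63 in CC, and 1.504, 3.06, 0.743 and 1.46 in CC-IF. Gabbr1 measured 0.776, 0.839, 1.19 and 0.735 FPKM in HFD, 0.921 and 1.66 in HFD-IF, 0.951, 1.298, 1.32 and 1.27 in CC, and 1.33, 0.754, 1.03 and 0.931 in CC-IF. Both overlapped across all 4 regimens, and neither passed in any liver comparison.

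**Figure D5:**
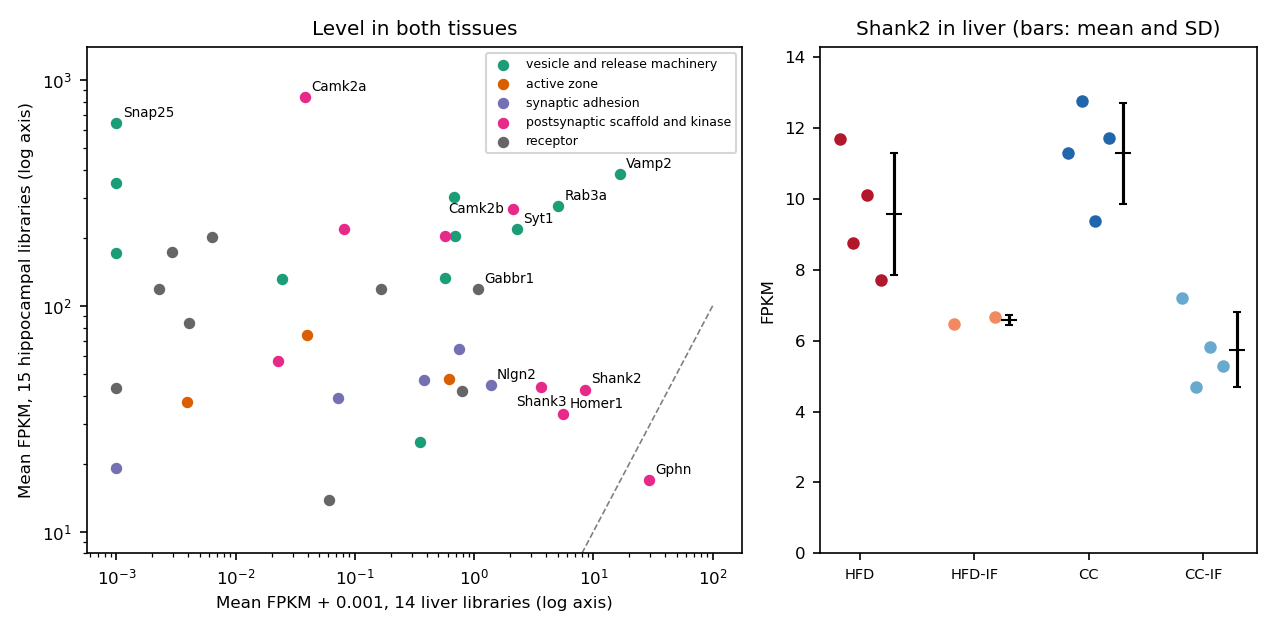
Left, mean FPKM of the 37 synaptic genes over 15 hippocampal libraries against their mean plus 0.001 over 14 liver libraries, both on log axes, with a dashed line where the 2 are equal; right, Shank2 FPKM in each liver library with the mean and SD of each regimen. Gphn lies below the line at 29.4 in liver, and the CC-IF libraries hold 4.70 to 7.19 FPKM of Shank2 against 9.37 to 12.8 in CC.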

How the data were processed

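Poly-A RNA of liver and hippocampus was sequenced as paired reads of 125 bases. The authors deposited 1 table of FPKM values per gene and library. The submitters' processing notes name the aligners Bowtie2 (version 2.3.5.1) and TopHat2 (2.1.1), the build GRCm38/mm10, the trimmer Trimmomatic (0.39) and the read quality tool FastQC (0.11.9). The tool that made the FPKM values is not given in the sources used here. FPKM are relative values, so a few abundant transcripts can shift all others. Of 32 samples named in the design text, 29 columns matched a group and were used. Samples are biological replicates, per the series design text, and the 40 same-group pairs differed in at least 99.99% of values (r from 0.953 to 0.984).

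Genes with a mean of at least 1 FPKM in a tissue were kept, 12857 in hippocampus and 11497 in liver. All 37 synaptic genes were kept in hippocampus and 10 in liver. log2(FPKM + 1) was fitted with limma 3.58.1 in R 4.3.3, with the groups of a tissue sharing 1 spread and an intensity trend. Fold changes on that scale understate changes of low genes. p-values are two-sided and adjusted by Benjamini-Hochberg over all genes kept, with a threshold of 0.05. The model over both tissues treats all libraries as independent, although liver and hippocampus may come from the same mice. The script was tested on simulated data. Depth was estimated from steps between low values, of which 59.9 to 79.7% lay within 0.2 of a whole number, against 40% by chance, so no counts were recovered and no count test was made.

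Members and lists were chosen with earlier results of these data known. Genes named with values in every library were those past the threshold or with the 3 smallest p in a hippocampal comparison, the highest and lowest of each class, those of largest and smallest spread, and those of at least 1 FPKM in liver. The liver comparisons, the 2 library sets, the choroid plexus split and the column number as a block were added after the data were seen. Exons of 19 of the 37 genes overlap another annotated gene (GENCODE M21), 5 of them a coding gene on the opposite strand (Nrxn2, Rab3a, Shank1, Syn1 and Syn2), and their values are uncertain to that extent. Alternatives tried were other pseudocounts, filters and scalings, fits on the groups compared alone, each library left out, and the library splits.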

Additional observations from a re-analysis of the deposited data

Results flagged for a closer look

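Single libraries stood apart from the rest of their group in 6 of 141 groups of 4 libraries tested by Dixon's criterion, which chance alone flags in about 1 of 20. Camk2b measured 222 FPKM in hippocampal HFD library 3, against 264 to 271 in the other HFD libraries, and 302 FPKM in HFD-IF library 1, against 263 to 269.6. Shank2 measured 49.9 FPKM in hippocampal HFD-IF library 2, against 39.4 to 41.2. Syn1 measured 127 FPKM in hippocampal CC library 0, against 134 to 135. In liver, Shank3 measured 4.92 FPKM in HFD library 3, against 2.82 to 3.00, and Gabbr1 measured 0.951 FPKM in CC library 0, against 1.27 to 1.32.

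The difference between fasted and freely fed mice on chow differed between the tissues for Shank2, by −0.83 ± 0.16 log2 units (liver minus hippocampus, SE) with adjusted p = 0.000816 in the limma model over both tissues.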

How the results depend on the processing

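In hippocampus 0 of the 37 genes passed in any comparison under the alternatives run one at a time, with 1 exception: Grin1 for fasting averaged over both diets, 1 gene, with the library set as a term. Its difference there ranged from 0.16 to 0.26 over 30 settings, with adjusted p from 0.0432 to 0.603 (limma), and with the set term and a library left out together the adjusted p ran from 0.0259 to 0.128. Signs turned for Homer1 in CC-IF minus HFD-IF within the 9 libraries of higher upper quartile (0.030), which hold 1 CC-IF library, for Syn2 in CC-IF minus CC within the 6 of lower upper quartile (0.0059), and for Nlgn2 in CC-IF minus HFD-IF within the same 6 (−0.061), where CC and HFD-IF have 1 library each; the cause was not tested. In liver, the count for CC-IF minus CC was 1 in place of 2 with a pseudocount of 0.1, without a filter, with a mean of at least 5 FPKM, after median-ratio or quantile scaling and with the replicate block by column number, and 1 to 2 with each library left out. The count for CC-IF minus HFD was 2 in place of 1 without a filter and after quantile scaling, and 1 to 2 with each library left out. Over all 11497 liver genes, 1970 to 3200 passed for CC-IF minus CC with each library left out, and 2037 to 3172 for CC-IF minus HFD. Counts over all genes are not given here for the other settings. For HFD-IF minus HFD and CC-IF minus HFD-IF the count stayed at 0 in every setting but 1, the fit without HFD-IF library 0. That fit rests on 1 remaining HFD-IF library, assumed to vary like the other groups, so only effect sizes are given for it. Nlgn2 then differed by 0.94 in HFD-IF minus HFD and Homer1 by 0.77 in CC-IF minus HFD-IF. The labels' replicate numbers could not be assigned to columns, which count from 0, so the column number was tried as a replicate block. Libraries of 1 number did not deviate together (r from −0.15 to 0.28 over 21 pairs between hippocampal regimens, and from −0.24 to 0.096 over 13 pairs between tissues). Such correlations cannot tell whether libraries of 1 number share an animal, litter or batch. With the replicate block 0 of the 37 passed in hippocampus, 15 genes in place of 8 passed for fasting averaged over both diets, Grin1 had 0.19 ± 0.05 (SE), and Shank2 in liver minus hippocampus had −0.84 ± 0.15 over 13 pairs (adjusted p = 0.00677, limma). FPKM without counts limit what can be said of low genes such as Gabbr1 and Nlgn2 in liver.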
